A study of Arabidopsis with 36 samples.

Results

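The mitochondrial genome loci are all entries of the deposited gene table whose locus ID begins with ATMG, the prefix of the Arabidopsis mitochondrial chromosome. They number 120 of the 33035 loci listed, beside 32801 nuclear and 114 plastid loci. The IDs are given without gene names, because neither the deposited files nor the reference gene table pairs an ATMG ID with a name (0 of 120 were matched). The study profiled polysomes of whole Arabidopsis seedlings, 11 days old and mock-treated, in 4 lines; 2 of these lines are described here. The groups, with 3 libraries each, are heavy polysomes, light polysomes and total RNA of the AtY34 overexpressor, and the same 3 fractions of wild type (Col-2). All groups share the age and the mock treatment. The labels state neither what AtY34 encodes nor the promoter that drives it. The AtYchF1 overexpressor and the AtYchF1 knockdown mutant are not analysed here.

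Mitochondria keep a small genome that encodes part of the respiratory chain and of the organelle's own translation machinery, while most mitochondrial proteins are encoded in the nucleus and imported. Mitochondrial mRNAs are translated inside the organelle, on mitochondrial ribosomes and not on the cytosolic ribosomes that form most polysomes of a plant extract. A polysome gradient separates complexes by how fast they sediment. RNA of heavy fractions thus lies in faster-sedimenting complexes than RNA of light fractions, whichever ribosome or other particle it is bound to. Arabidopsis also carries a large copy of mitochondrial DNA in chromosome 2, so near-identical nuclear loci stand beside many mitochondrial ones.

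The deposited values are TPM, the length-scaled share of each library, and they keep no read number, so sequencing depth is unknown. A library had between 16035 and 19398 loci above 0. Values below are scaled TPM, which are TPM divided by a factor per library taken from nuclear loci; the factors lay between 0.761 and 1.44. AtYchF1 (AT1G30580), the gene named in the study's other lines, had 165 ± 8.74 scaled TPM in heavy polysomes, 189 ± 19.3 in light polysomes and 203 ± 33.4 in total RNA of the AtY34 line, against 34.6 ± 5.91, 30.1 ± 10.7 and 41.2 ± 9.97 in wild type (SD, n = 3 each). The 4 green-tissue markers summed to between 17198 and 29165 scaled TPM in every library, the 5 root markers to between 170 and 341, and the 3 seed-storage markers to between 0 and 80.9. Each of the 3 seed-storage markers had a lower mean in the AtY34 line than in wild type in every fraction. In total RNA the means were 0.464 against 11.0 for CRU3, 3.44 against 15.6 for CRA1 and 0 against 9.45 for SESA1. The cause was not tested. In whole seedlings, fewer cells of a type and less RNA per cell cannot be told apart.

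Of the 120 loci, 25 were at 0 in every library and 58 were above 0 in every library. Tests covered the 90 loci that reached 1 TPM in 3 or more libraries; of the other 30, 5 were above 0 somewhere. Between 74 and 81 loci were above 0 in each library. Zeros were more frequent than at nuclear loci of like level. Among loci with a mean between 20 and 100 scaled TPM, 15.8% of the values of the 26 mitochondrial loci were 0, against 0.828% for 3407 nuclear loci. Between 5 and 20, the shares were 50.9% and 4.38%. At 100 and above they were 0.242% and 0.166%, so the 46 mitochondrial loci at that level were read in nearly every library.

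Levels were concentrated in a few loci. ATMG01080 averaged 5148 scaled TPM over the 18 libraries, followed by ATMG00400 with 1928, ATMG00200 with 1503, ATMG00110 with 717, ATMG00660 with 667 and ATMG01380 with 662. These 6 loci together held between 37.8% and 62.7% of the mitochondrial TPM of a library. The mitochondrial loci as a whole took 2.60% ± 0.119 of all TPM in heavy polysomes, 2.05% ± 0.596 in light polysomes and 1.75% ± 0.278 in total RNA of the AtY34 line. In wild type they took 2.72% ± 0.321 in heavy polysomes, 1.93% ± 0.435 in light polysomes and 1.89% ± 0.228 in total RNA (SD, n = 3 each). Such shares depend on the other RNAs of a library. The nuclear locus AT1G15405 took 0.582% ± 0.199 of TPM in heavy, 1.44% ± 0.152 in light and 17.02% ± 2.63 in total RNA of the AtY34 line, and 0.427% ± 0.137, 2.10% ± 0.749 and 17.01% ± 1.33 in wild type.

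Against light polysomes, heavy polysomes held more RNA of most mitochondrial loci and less of the most abundant one. Without ATMG01080, the summed level in the AtY34 line was 20252, 14605 and 18904 scaled TPM in the 3 heavy libraries and 14380, 9010 and 9176 in the 3 light ones. In wild type it was 15826, 22739 and 19599 in heavy and 10440, 9460 and 10858 in light. Every heavy library lay above every light library of its line once ATMG01080 was left out. With ATMG01080, the fractions overlapped in both lines. The sums were then 23065, 17168 and 21966 in heavy and 24859, 13426 and 16146 in light libraries of the AtY34 line. In wild type they were 18482, 26339 and 22446 in heavy and 19767, 14228 and 19103 in light. In total RNA the sum without ATMG01080 was 16444 ± 1639 in the AtY34 line and 18609 ± 880 in wild type, within the range of the heavy libraries.

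ATMG01080 ran the other way. It had 2813, 2563 and 3062 scaled TPM in heavy, 10479, 4416 and 6970 in light and 6538, 3288 and 5297 in total libraries of the AtY34 line. In wild type it had 2657, 3600 and 2847 in heavy, 9327, 4768 and 8245 in light, and 6539, 3381 and 5876 in total libraries. All 6 heavy values lay below all 6 light values, and replicate 2 was the lowest in the light and total groups of both lines. The locus thus made up 13.7% ± 1.38 of mitochondrial TPM in heavy, 39.4% ± 5.66 in light and 23.0% ± 4.47 in total RNA of the AtY34 line, and 13.6% ± 0.849, 41.3% ± 7.03 and 21.8% ± 5.52 in wild type. By limma with Benjamini-Hochberg adjustment over all 20340 loci tested, the heavy-minus-light difference of ATMG01080 did not pass in the AtY34 line (log2 -1.29, SE 0.34, adjusted p = 0.0934) or in wild type (-1.25, SE 0.34, adjusted p = 0.0924). Averaged over both lines, a comparison added after the data were seen, it fell (log2 -1.27, SE 0.24, adjusted p = 0.00469). Its adjusted p lay between 0.00258 and 0.0146 when any 1 of the 12 libraries was left out. When libraries were scaled by mitochondrial instead of nuclear loci, it passed in each line, with log2 differences of -1.86 (adjusted p = 0.00171) in the AtY34 line and -1.92 (adjusted p = 0.0012) in wild type. That scaling lowers loci in general, with medians over all loci of -0.47 in the AtY34 line and -0.57 in wild type. Under it 4.03% and 4.82% of all loci were called lower, against 0.428% and 0.61% under nuclear scaling.

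**Figure D1:**
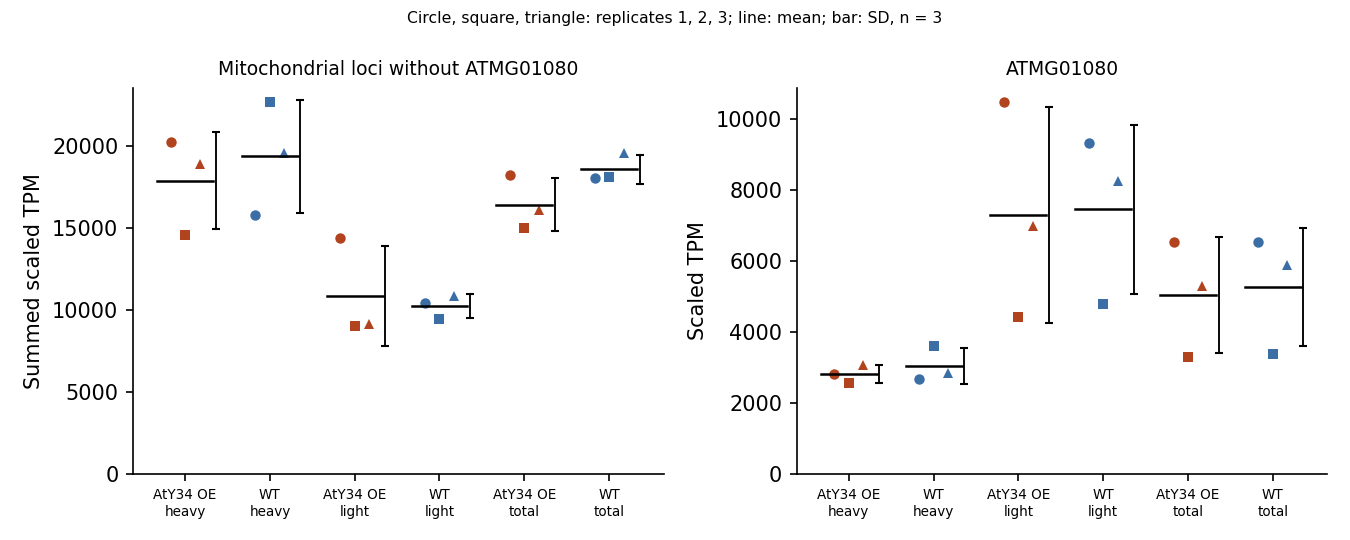
Summed scaled TPM of all mitochondrial loci except ATMG01080 (left) and scaled TPM of ATMG01080 (right), by library, for heavy, light and total RNA of the AtY34 overexpressor (OE, red) and wild type (WT, blue). Symbols mark replicates 1 to 3, lines the mean and bars the SD (n = 3); heavy libraries lie above light ones on the left and below them on the right.

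In the AtY34 line 16 of the 90 tested loci had all heavy libraries above all light ones, where 8.38% of all loci did, and 1 had all below, where 9.54% did. In wild type the counts were 27, where 7.89% of all loci did, and 2, where 9.9% did.

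Over the 90 tested loci, the median heavy-minus-light difference was 0.53 on the log2 scale in the AtY34 line, with 72 positive, and 0.75 in wild type, with 78 positive. Over all 20340 loci the medians were -0.03 and -0.06. The 79 tested plastid loci had medians of -0.29 in the AtY34 line and -0.38 in wild type. A list of 32 nuclear genes for mitochondrial proteins had medians of 0.28 and 0.26. Of these 32, none passed in either line alone (unadjusted p under 0.05 for 7 in the AtY34 line and 6 in wild type). Over both lines, ATP3, a subunit of the mitochondrial ATP synthase, rose by 0.62 (adjusted p = 0.0221) and SDH1-1, a succinate dehydrogenase subunit, by 0.64 (adjusted p = 0.0328), while CYTC-2, a cytochrome c, fell by 1.26 (adjusted p = 0.0366), where 1.94% of all loci rose and 2.86% fell.

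The direction of the mitochondrial median is relative to nuclear loci. With scaling by the 58 mitochondrial loci at or above 1 TPM in all libraries, the median of all loci moved to -0.47 in the AtY34 line and -0.57 in wild type, and that of the mitochondrial loci to 0.00 and 0.13.

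**Figure D2:**
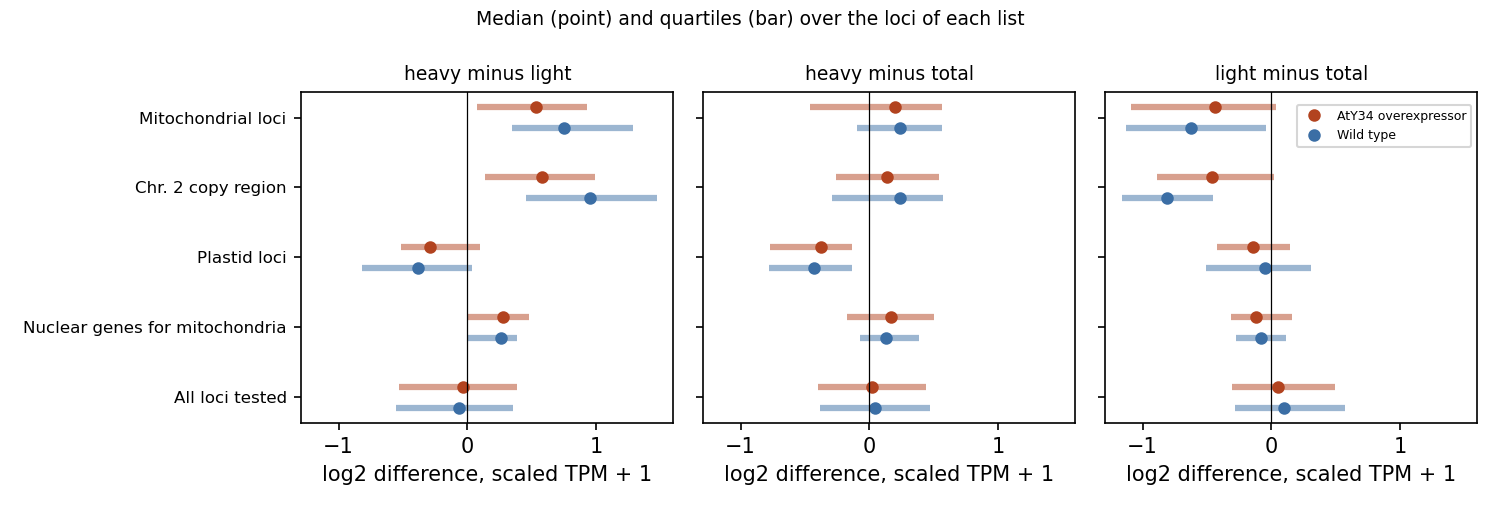
Median (point) and quartiles (bar) of log2 differences in scaled TPM + 1 between fractions, for the AtY34 overexpressor (red, upper) and wild type (blue, lower), over the tested loci of each list. Mitochondrial loci and the chromosome 2 copy region lie above 0 for heavy minus light, plastid loci below it.

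In the AtY34 line 5 mitochondrial loci rose in heavy against light polysomes, where 0.285% of all loci rose, and none fell by limma, where 0.428% of all loci fell (1 was lower at an unadjusted p under 0.05). They were ATMG01190 (log2 2.08, SE 0.37, adjusted p = 0.0119), ATMG00080 (1.17, adjusted p = 0.0211), ATMG00510 (0.89, adjusted p = 0.025), ATMG01360 (0.78, adjusted p = 0.0325) and ATMG01200 (0.90, adjusted p = 0.0432). The count went to 9 without light replicate 1, to 3 without heavy replicate 2, and to 1 without heavy replicate 1, heavy replicate 3, light replicate 2 or light replicate 3. Of the 5 calls, that of ATMG01190 held in all 6 of these fits, with adjusted p between 0.0118 and 0.0424. That of ATMG00080 held without heavy replicate 2 or light replicate 1, and those of ATMG00510, ATMG01360 and ATMG01200 held without light replicate 1 alone; the highest adjusted p was 0.167. A fit of only the 2 groups compared called 0, and scaling by mitochondrial loci called 1 higher and 1 lower, ATMG01190 and ATMG01080, where 0.0344% of all loci were called higher and 4.03% lower. Without replicate 2 of every group, ATMG01080 was the 1 locus called, and it was lower (log2 -1.54, adjusted p = 0.0233).

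In wild type 5 loci likewise rose, against 0.418% of all loci, and none fell by limma, against 0.61% (3 were lower at an unadjusted p under 0.05). They were ATMG01200 (log2 1.12, SE 0.20, adjusted p = 0.00952), ATMG00400 (2.003, adjusted p = 0.0126), ATMG00200 (2.08, adjusted p = 0.0147), ATMG01020 (3.07, adjusted p = 0.0161) and ATMG01360 (0.75, adjusted p = 0.0335). ATMG01200 and ATMG01360 were called in both lines, and 7 of the 8 loci called in either line were positive in both. The exception was ATMG01020, a low locus with 13.2, 20.4 and 24.5 scaled TPM in heavy and 32.5, 22.8 and 20.7 in light libraries of the AtY34 line, and 20.3, 34.2 and 38.4 in heavy and 6.31, 5.85 and 0 in light libraries of wild type. The wild-type count was 3 without heavy replicate 2 and 2 without heavy replicate 3 or light replicate 1. The call of ATMG01200 held in all 6 such fits (adjusted p between 0.0234 and 0.0421), and that of ATMG01360 ended in all 6 (adjusted p between 0.0643 and 0.155). The call of ATMG00400 ended without light replicate 1 (adjusted p = 0.0665), that of ATMG00200 without heavy replicate 3, light replicate 1 or light replicate 3 (adjusted p up to 0.074), and that of ATMG01020 without heavy replicate 2 or 3 (adjusted p up to 0.0685). Scaling by mitochondrial loci called 3 higher and 2 lower, where 0.0737% of all loci were called higher and 4.82% lower. A fit of only the 2 groups compared called 5 higher and 1 lower, ATMG01010, a locus at 0 in every heavy library of wild type. ATMG01010 passed the filter of that fit only through the light libraries, so its call gives no support for a difference. Without replicate 2 of every group, 1 was higher, ATMG01250, and 1 lower, ATMG01080 (log2 -1.66, adjusted p = 0.0127).

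Averaged over both lines, 13 mitochondrial loci rose in heavy against light polysomes, where 1.94% of all loci rose, and 1 fell, ATMG01080, where 2.86% of all loci fell. The count of 14 lay between 10 and 15 when any 1 of the 12 libraries was left out, and was 8 without replicate 2 of every group. Scaling by mitochondrial loci called 3 higher and 2 lower, where 0.167% of all loci were called higher and 16.6% lower. TPM as deposited called 28 higher and 1 lower, where 3.5% and 2.1% of all loci were. ATMG00400, the second most abundant locus, had 3221, 1407 and 3034 scaled TPM in heavy and 1922, 672 and 882 in light libraries of the AtY34 line, and 2492, 3306 and 3129 in heavy and 569, 651 and 1077 in light libraries of wild type. The groups overlapped in the AtY34 line, where heavy replicate 2 lay below light replicate 1, and were apart in wild type. Its difference was 1.60 (SE 0.26, adjusted p = 0.00158). ATMG00200 had 3071, 1195 and 2178 in heavy and 1321, 643 and 413 in light libraries of the AtY34 line, and 2020, 2526 and 2725 in heavy and 440, 685 and 608 in light libraries of wild type. The same library, heavy replicate 2 of the AtY34 line, was again the low one, and the difference was 1.79 (SE 0.28, adjusted p = 0.00106).

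ATMG01190 had 359, 519 and 386 scaled TPM in heavy and 159, 41.7 and 139 in light libraries of the AtY34 line, against 453, 439 and 423 in heavy and 238, 135 and 152 in light libraries of wild type. The fractions did not overlap in either line, and the difference over both lines was 1.72 (SE 0.26, adjusted p = 9.18e-04). ATMG01200 had 338, 321 and 376 in heavy and 263, 163 and 147 in light libraries of the AtY34 line, and 336, 373 and 355 in heavy and 184, 140 and 167 in light libraries of wild type. Again the fractions were apart in both lines, with a difference of 1.01 (SE 0.14, adjusted p = 4.21e-04). The spread within a group was narrowest for both of these loci in wild-type heavy polysomes, at 438 ± 15.5 for ATMG01190 and 355 ± 18.5 for ATMG01200 (SD, n = 3). In the other groups the SD lay between 45.1 and 85.3 for ATMG01190 and between 22.1 and 62.7 for ATMG01200.

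ATMG01360 had 358, 393 and 342 in heavy and 253, 191 and 194 in light libraries of the AtY34 line, and 352, 430 and 336 in heavy and 235, 227 and 199 in light libraries of wild type. Its fractions were apart in both lines, with a difference of 0.77 (SE 0.12, adjusted p = 9.43e-04). ATMG00510 had 341, 421 and 353 in heavy and 228, 178 and 192 in light libraries of the AtY34 line, and 363, 395 and 356 in heavy and 321, 194 and 280 in light libraries of wild type, also apart in both lines. ATMG00080 had 273, 245 and 232 in heavy and 127, 115 and 92.8 in light libraries of the AtY34 line, and 209, 344 and 224 in heavy and 227, 128 and 195 in light libraries of wild type. Its fractions were apart in the AtY34 line and overlapped in wild type. The other loci that rose were ATMG00510 (0.70, adjusted p = 0.00372), ATMG00080 (0.83, adjusted p = 0.00577), ATMG00513 (1.04, adjusted p = 0.00861), ATMG00660 (0.82, adjusted p = 0.00884), ATMG01320 (1.003, adjusted p = 0.0269), ATMG00060 (0.82, adjusted p = 0.0328), ATMG00560 (0.56, adjusted p = 0.042) and ATMG00130 (1.39, adjusted p = 0.0429). The last 4 of these calls ended in 7, 7, 11 and 8 of the 12 fits that left out 1 library, with adjusted p up to 0.105. All 4 ended without light replicate 2 of the AtY34 line and without heavy replicate 2 or light replicate 3 of wild type. That of ATMG01320 also ended without heavy replicate 1, heavy replicate 2 or light replicate 3 of the AtY34 line or heavy replicate 1 of wild type, and that of ATMG00060 without heavy replicate 2 or light replicate 1 of the AtY34 line or heavy replicate 3 or light replicate 2 of wild type. That of ATMG00560 held only without light replicate 1 of the AtY34 line, and that of ATMG00130 also ended without heavy replicate 1 or 3 of the AtY34 line or heavy replicate 1, light replicate 1 or light replicate 2 of wild type.

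**Figure D3:**
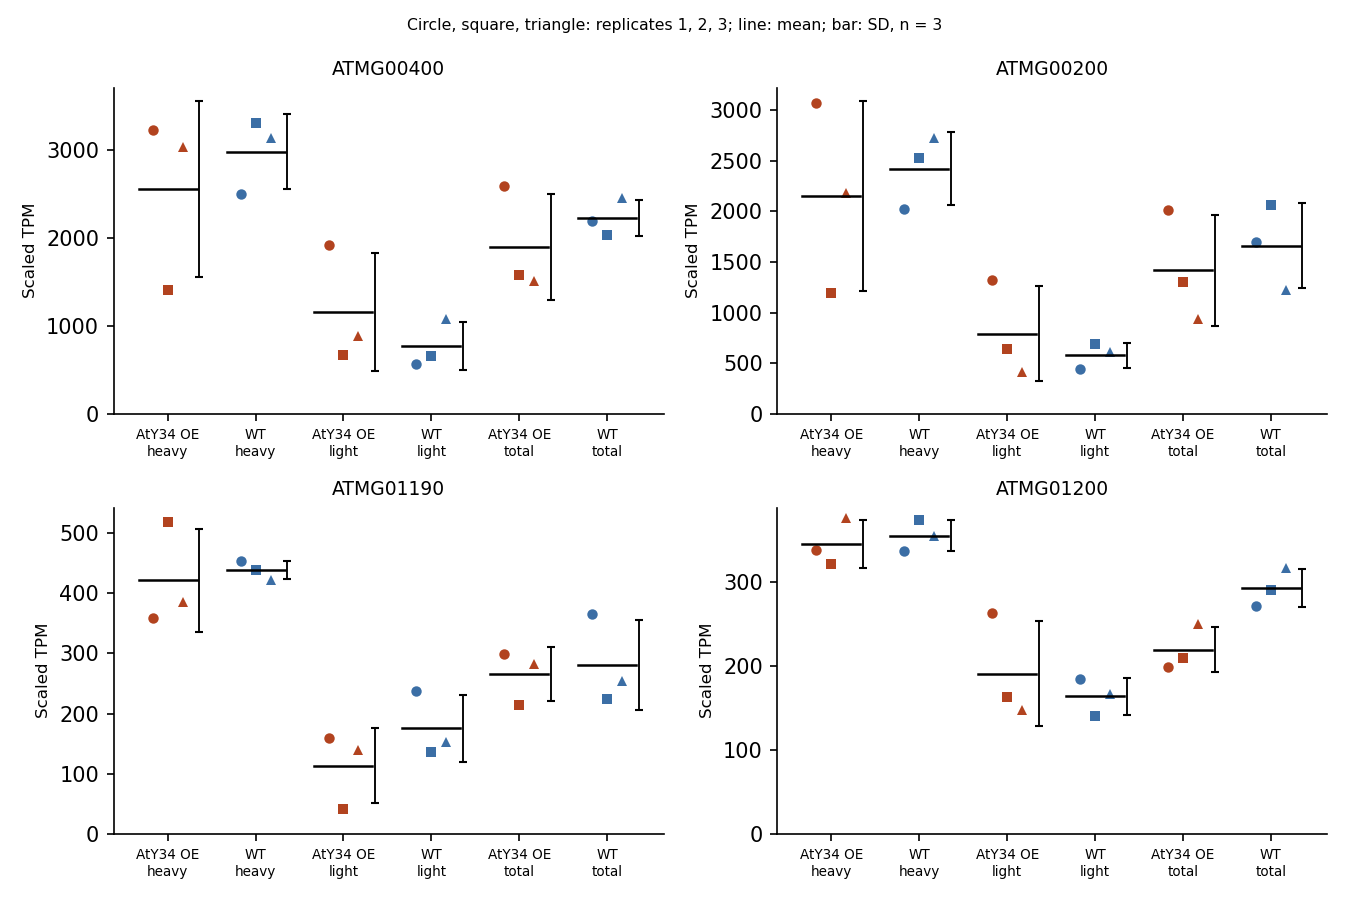
Scaled TPM of ATMG00400, ATMG00200, ATMG01190 and ATMG01200 by library (AtY34 overexpressor, OE, red; wild type, WT, blue; symbols mark replicates 1 to 3, lines the mean, bars the SD, n = 3). Heavy libraries lie above light ones, except heavy replicate 2 of the AtY34 line in the upper panels.

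ATMG00110, the fourth most abundant locus, did not pass. It had 1021, 454 and 816 scaled TPM in heavy and 937, 436 and 511 in light libraries of the AtY34 line, and 609, 902 and 812 in heavy and 276, 521 and 593 in light libraries of wild type. The fractions overlapped in the AtY34 line and were apart in wild type (adjusted p = 0.828 and 0.384). ATMG00660 had 914, 698 and 704 in heavy and 686, 307 and 424 in light libraries of the AtY34 line, and 685, 973 and 895 in heavy and 446, 400 and 551 in light libraries of wild type, apart in both lines. Of the 72 loci whose mean reached 20 scaled TPM, 56 were positive in both lines and 2 were negative in both, ATMG01080 and ATMG01000. ATMG01000 did not pass (over both lines log2 -0.27, SE 0.25, adjusted p = 0.635).

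**Figure D4:**
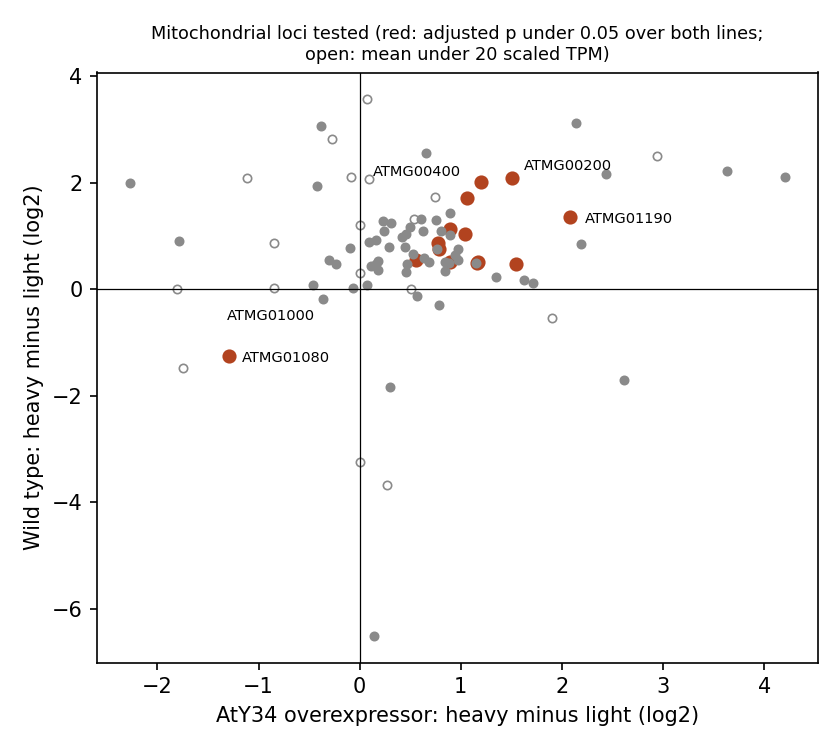
Heavy-minus-light log2 difference of each of the 90 tested mitochondrial loci in the AtY34 overexpressor (horizontal) and wild type (vertical). Red points passed over both lines, open points have a mean under 20 scaled TPM; 13 of the 14 red points lie in the upper right and ATMG01080 in the lower left.

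The chromosome 2 region that holds the nuclear copy gave values close in size to those of the mitochondrial loci. Its 114 loci took 1.98% of TPM in heavy, 1.52% in light and 1.34% in total RNA of the AtY34 line, and 2.11%, 1.48% and 1.42% in wild type. The median heavy-minus-light difference of the 77 tested was 0.58 in the AtY34 line and 0.96 in wild type. Its most abundant locus, AT2G07671, chosen after its values were seen, had 2054, 1933 and 1554 scaled TPM in heavy and 6301, 3452 and 4380 in light libraries of the AtY34 line, and 1473, 1602 and 2757 in heavy and 7234, 2453 and 5563 in light libraries of wild type. It lay on the side of ATMG01080 (over both lines log2 -1.31, adjusted p = 0.00429). For heavy against light, 2.6% of the region's 77 tested loci were called higher in the AtY34 line, 13% in wild type and 23.4% over both lines. The shares of mitochondrial loci were 5.56%, 5.56% and 14.4%, and those of all loci 0.285%, 0.418% and 1.94%. Over both lines 1 locus of the region was called lower, AT2G07671. The deposited gene table carries the name Salmon, but the sources used here do not give the settings by which reads were divided between the copies. The level of a single mitochondrial locus is thus uncertain where a near-identical nuclear locus exists. Mitochondrial loci and this region together took 4.58% ± 0.239 of TPM in heavy, 3.56% ± 1.06 in light and 3.09% ± 0.469 in total RNA of the AtY34 line, and 4.83% ± 0.554, 3.41% ± 0.923 and 3.31% ± 0.381 in wild type (SD, n = 3 each).

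Between heavy polysomes and total RNA, the 90 loci had a median log2 difference of 0.20 in the AtY34 line and 0.24 in wild type, beside 0.02 and 0.04 over all loci. No mitochondrial locus passed by limma in the AtY34 line, where 0.0737% of all loci were called by limma, or in wild type, where 0.138% were; 11 and 10 loci had an unadjusted p under 0.05. Over both lines 1 was called higher and 1 lower, where 1.01% of all loci were called. The one called higher by limma was ATMG01260 (adjusted p = 0.0146). It had 77.1, 26.8 and 54.3 scaled TPM in heavy and 0 in every total library of the AtY34 line. In wild type it had 29.9, 78.1 and 0 in heavy and 0 in every total library. No fold is given against groups listed at 0. The locus passed the filter through polysome libraries alone, so its call gives no support for a difference from total RNA. With TPM as deposited, the median of all loci moved to 0.51 and 0.52, and 7 mitochondrial loci rose and 1 fell in the AtY34 line, while 5 rose and 2 fell in wild type, and 32 rose and 1 fell over both lines. Of all loci, 3.42% rose and 0.0983% fell in the AtY34 line under that setting, 3.74% and 0.143% in wild type, and 17.4% and 0.452% over both lines.

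ATMG01380 was highest in total RNA. The libraries were made after ribosomal RNA removal, and whether that step acted on this locus was not tested. It had 262, 168 and 340 scaled TPM in heavy, 230, 182 and 61.5 in light and 1147, 722 and 1878 in total libraries of the AtY34 line. In wild type it had 213, 385 and 225 in heavy, 397, 264 and 85.0 in light and 1453, 1457 and 2452 in total libraries. Every total library lay above every polysome library of both lines. Over both lines it fell by 2.47 on the log2 scale in heavy against total (SE 0.37, adjusted p = 0.00308) and by 3.06 in light against total (SE 0.37, adjusted p = 6.66e-04), and both calls held with any 1 library left out (highest adjusted p 0.0133 and 0.00353). Within a line, light against total passed in the AtY34 line (-3.07, adjusted p = 0.0308) and in wild type (-3.05, adjusted p = 0.0282), and heavy against total did not (-2.23, adjusted p = 0.138, and -2.71, adjusted p = 0.055). The AtY34 call ended without light replicate 2 or 3 or total replicate 1 or 3 (adjusted p up to 0.139), and the wild-type call held only without light replicate 1 (adjusted p up to 0.158). Both ended in a fit of only the 2 groups compared (adjusted p = 0.0912 in the AtY34 line and 0.095 in wild type), and both ended without replicate 2 of every group (adjusted p = 0.116 and 0.147).

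ATMG00020 and ATMG01390 had their highest mean in total RNA and a wide spread in light polysomes. As for ATMG01380, whether ribosomal RNA removal acted on these loci, and equally in each library, was not tested. ATMG00020 had 94.2, 86.0 and 117 scaled TPM in heavy, 21.3, 172 and 6.09 in light and 183, 241 and 211 in total libraries of the AtY34 line, and 123, 65.9 and 63.1 in heavy, 109, 196 and 17.9 in light and 245, 219 and 233 in total libraries of wild type. ATMG01390 had 63.9, 51.8 and 88.7 in heavy, 9.76, 110 and 7.80 in light and 120, 147 and 86.7 in total libraries of the AtY34 line, and 53.6, 47.0 and 34.3 in heavy, 73.4, 123 and 5.95 in light and 165, 149 and 138 in total libraries of wild type. In both loci light replicate 2 was the highest of its group in both lines. ATMG00030, chosen after its values were seen, had 0, 506 and 9.84 in light libraries of the AtY34 line and 251, 322 and 0 in those of wild type. Neither ATMG00020 nor ATMG01390 passed in any of the 13 comparisons as reported here. In a fit of only the groups compared, ATMG01390 was called lower in heavy polysomes than in total RNA in wild type (log2 -1.75, adjusted p = 0.0315) and over both lines (-1.27, adjusted p = 0.00686), and ATMG00020 over both lines (-1.32, adjusted p = 0.00323). Without replicate 2 of every group, both were called lower in light polysomes than in total RNA over both lines (adjusted p = 0.0288 for ATMG00020 and 0.0475 for ATMG01390).

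**Figure D5:**
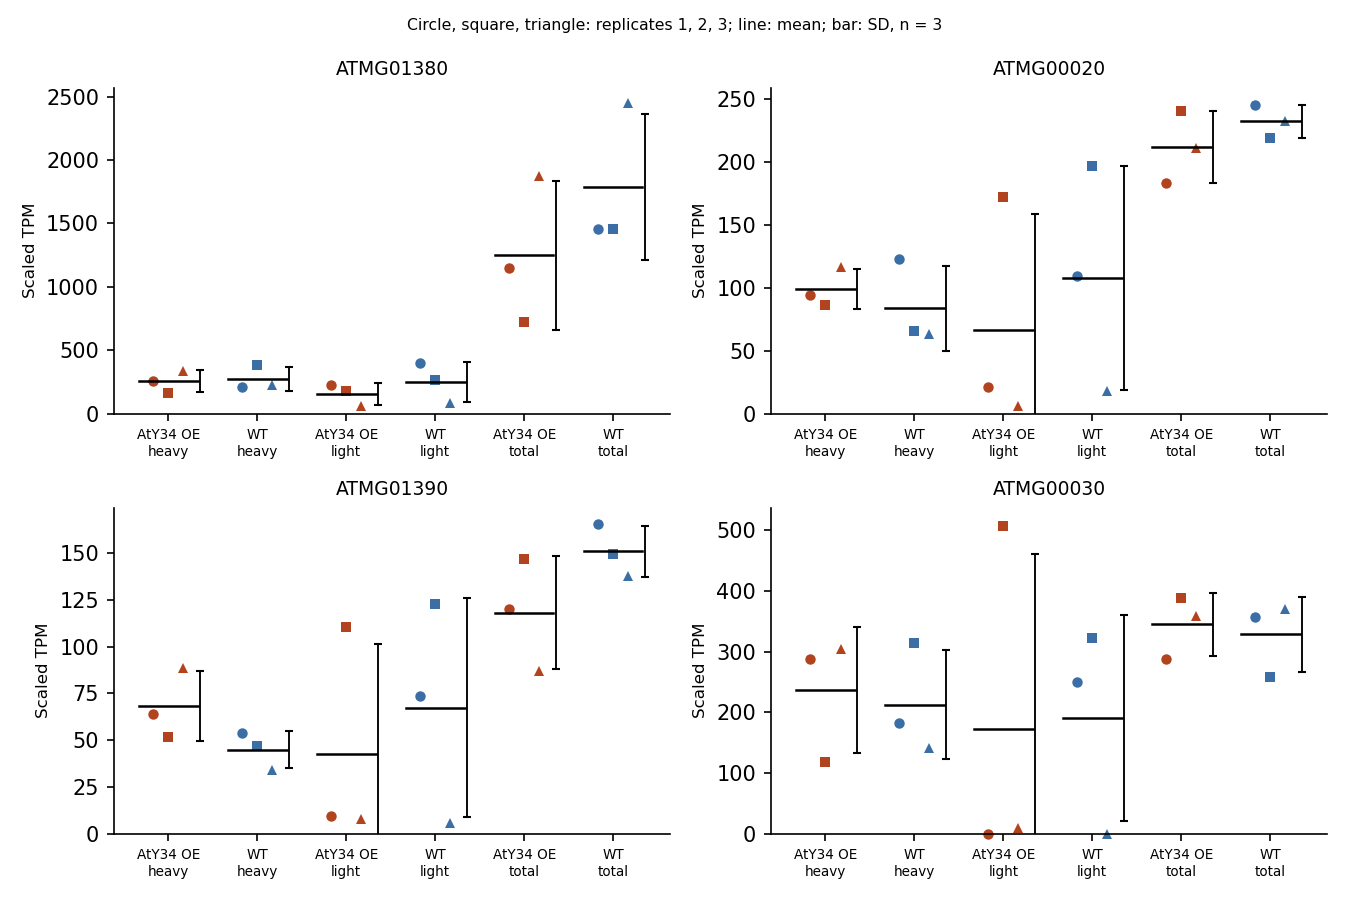
Scaled TPM of ATMG01380, ATMG00020, ATMG01390 and ATMG00030 by library (AtY34 overexpressor, OE, red; wild type, WT, blue; symbols mark replicates 1 to 3, lines the mean, bars the SD, n = 3). Total libraries are highest for ATMG01380, and light replicate 2 (square) stands above the other light libraries of its line for the other 3 loci; SD bars end at 0.

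Light polysomes against total RNA gave a median of -0.44 in the AtY34 line and -0.62 in wild type, beside 0.05 and 0.10 over all loci. In the AtY34 line 1 locus fell, ATMG01380, where 0.0393% of all loci fell. In wild type ATMG01380 fell too, where 0.0541% did. ATMG01180 was also called lower, but it passed the filter on low values only through the 3 wild-type total libraries, so that its call gives no support for a difference. With only the 2 groups compared in the fit, the AtY34 call was 1 higher, ATMG01260, and the wild-type calls were 1 higher, ATMG01230, and 1 lower, ATMG01180. ATMG01260 passed the filter through polysome libraries alone, so its call likewise gives no support for a difference from total RNA. The same holds for ATMG01230, which passed the filter of its fit only through the wild-type light libraries, where it is high. The AtY34 count was 0 without light replicate 3, total replicate 1 or total replicate 3. The wild-type count of 2, with ATMG01180, was 0 without light replicate 2 or 3, and 1 without light replicate 1 or any 1 total library. The call of ATMG01180 ended without any 1 light library (adjusted p up to 0.094). Over both lines 4 fell, where 0.236% of all loci did: ATMG01380, ATMG00690 (-1.19, adjusted p = 0.0383), ATMG00400 (-1.20, adjusted p = 0.0478) and ATMG01360 (-0.54, adjusted p = 0.0488). The last 3 ended in 9, 10 and 11 of the 12 fits that left out 1 library. That of ATMG00690 held without light replicate 1 of the AtY34 line or light replicate 2 or total replicate 1 of wild type, that of ATMG00400 without light replicate 1 of the AtY34 line or light replicate 3 of wild type, and that of ATMG01360 without light replicate 1 of the AtY34 line. Scaling by mitochondrial loci called 6 higher and 2 lower, where 8.77% of all loci were called higher and 0.118% lower. With unscaled TPM 4 were higher and 2 lower, where 5.84% and 0.133% of all loci were. The count of 4 was 12 without light replicate 1 of the AtY34 line; it was 1 without its light replicate 3, total replicate 1 or total replicate 3, or total replicate 3 of wild type; and it was 2 without light replicate 1, light replicate 2 or total replicate 2 of wild type.

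Between the 2 lines, the one mitochondrial locus called was one that the filter on low values had selected by the same libraries. The median difference of the AtY34 line from wild type was -0.08 in heavy polysomes, 0.08 in light polysomes and -0.04 in total RNA. No locus passed in heavy polysomes, where 0.0197% of all loci were called by limma, or in light polysomes, where 0.0344% were; 2 and 9 had an unadjusted p under 0.05. In total RNA 1 locus was called lower, ATMG01180, where 0.059% of all loci were. It was listed at 0 in all 9 libraries of the AtY34 line, and in wild type at 11.0, 0 and 0 scaled TPM in heavy, 0 in every light, and 16.9, 17.9 and 20.9 in total libraries (adjusted p = 0.012). It passed the filter only through the wild-type total libraries, where it is high, so its call gives no support for a difference between the lines. No fold is given against a group listed at 0. The call also ended in a fit of only the 2 groups compared (adjusted p = 0.0611), without replicate 2 of every group (adjusted p = 0.217) and without total replicate 1 of the AtY34 line (adjusted p = 0.0527). The difference between the lines in heavy minus light was called at no mitochondrial locus, and at 0% of all loci; 3 mitochondrial loci had an unadjusted p under 0.05. For ATMG01080 that difference was -0.04 (SE 0.48) and for ATMG00400 -0.81 (SE 0.52), both with an adjusted p of 1.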

How the data were processed

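RNA of 36 samples was sequenced after ribosomal RNA removal, in strand-specific libraries, per the labels' protocols. The authors deposited gene-level TPM. FastQC, MultiQC, STAR and the build TAIR10 are named in the submitters' processing notes, without versions or roles. The deposited gene table also carries the name Salmon, without a version or settings. Columns of 18 libraries were tied to samples by name; 18 further sample columns of the gene table match no single label and were not used, and neither was the transcript table. Depth is unknown, so no count model was used.

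Each library's TPM were divided by its median ratio to geometric means of 9431 nuclear loci at or above 1 TPM in all 18 libraries. The 20340 loci at or above 1 TPM in at least 3 libraries were log2-transformed as log2(scaled TPM + 1) and tested two-sided in limma 3.58.1 (R 4.3.3), fitting 6 group means with a mean-dependent variance prior, 12 residual degrees of freedom and Benjamini-Hochberg adjustment within each comparison (threshold 0.05). Differences are on that scale, which understates change at low loci. The procedure was tested on simulated data with changes placed only at loci of high level. That test does not cover loci with low values or frequent zeros. There were 10 planned comparisons of these lines, and 3 averages over both lines were added after the data were seen.

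Values are given in full for the 6 most abundant loci, for ATMG00020, ATMG01380 and ATMG01390, and for the 10 loci called in any planned comparison. Other called loci get difference and adjusted p. Members and lists were chosen with earlier results of these data known. Lists by protein complex were not used, since no ATMG ID could be named. Nothing states that replicates are separate cultures, so the p-values cover only the spread among these samples, possibly technical. None of 153 library pairs held identical values. Alternatives were TPM as deposited, scaling by mitochondrial loci, another pseudocount, no filter, a replicate block, a fit of only the groups compared, and single libraries left out.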

Additional observations from a re-analysis of the deposited data

How the results depend on the processing

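Counts of mitochondrial loci called were within 1.5 times the reported count in all 13 comparisons with a pseudocount of 0.1 and with no filter. With TPM as deposited, heavy against total gave 8 in the AtY34 line, 7 in wild type and 33 over both lines, and heavy against light over both lines gave 29. In the same order, 3.42%, 3.74%, 17.4% and 3.5% of all loci were called higher. The shares called lower were 0.0983%, 0.143%, 0.452% and 2.1%. Scaling by mitochondrial loci gave 2 for heavy against light in the AtY34 line, 5 for it when both lines were averaged, 1 for heavy against total in wild type and 8 for light against total over both lines. Of all loci, 0.0344%, 0.167%, 0% and 8.77% were called higher there, and 4.03%, 16.6%, 0.103% and 0.118% lower. For the other settings the shares of all loci are not given, so their counts show only how the calls vary. A fit of only the groups compared gave, in the AtY34 line, 0 for heavy against light and 2 for heavy against total, in wild type 2 for heavy against total (both lower), over both lines 4 for heavy against total, 1 higher and 0 lower for light against total in the AtY34 line and 1 higher and 1 lower for it in wild type, and, in total RNA, 0 for the AtY34 line against wild type. Without replicate 2 in every group, chosen after seeing the data, heavy against light gave 1 in the AtY34 line, 2 in wild type and 8 over both lines, and 0 was given by light against total in either line and by the line comparison in total RNA. The causes were not tested. With the replicate number as a block, light against total in the AtY34 line gave 0 and heavy against total in wild type gave 1, and the other 11 counts stayed within 1.5 times. For heavy against light the block gave 4 higher and 1 lower in the AtY34 line and 5 higher and 1 lower in wild type; ATMG01080 was the lower one in both (adjusted p = 0.0289 and 0.0277), and the AtY34 call of ATMG01200 ended (adjusted p = 0.0503), as did that of ATMG01380 for light against total (adjusted p = 0.0559). Whether the numbers pair the samples is not settled by these values. Of 27 same-number correlations, 0 passed 0.1 (-0.0637 to 0.0589), while 16 of 27 were closest to their own number.

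With 1 library left out, counts for heavy against light lay between 1 and 9 in the AtY34 line, 2 and 5 in wild type and 10 and 15 over both lines. For heavy against total they lay at 0, between 0 and 1, and between 2 and 3, and for light against total between 0 and 1, 0 and 1, and 1 and 12, in the same order of lines. The AtY34 line against wild type gave between 1 and 2 in total RNA and 0 elsewhere. Over both lines, ATMG00200, ATMG00400, ATMG01080 and ATMG01190 kept their heavy-against-light call in every fit run. Differences that changed sign were none of them called there. Under mitochondrial scaling these were, for heavy against light, ATMG01380 in wild type (-0.314) and over both lines (-0.0178) and ATMG00560 over both lines (-0.0573), and ATMG01360 for light against total over both lines (0.0245). Without light replicate 3 of wild type ATMG01380 was -0.293 for heavy against light, and with any 1 library left out it reached 0.813. The difference between lines in heavy minus light for ATMG01080 was 0.0593 under mitochondrial scaling, 0.12 without replicate 2 in every group, and between -0.36 and 0.27 with 1 library left out (0.03, 0.27, 0.09 and 0.25 in the 4 fits that changed sign); for ATMG01380 it lay between -0.0819 and 1.13.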
